A study of Mus musculus and Homo sapiens with 22 samples.

Results

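The 9 core genes of the circadian clock, Arntl (also named Bmal1, and BMAL1 in the human annotation), Clock, Per1, Per2, Cry1, Cry2, Nr1d1, Nr1d2 and Dbp, were examined in 3 genome-wide lists of PROX1 binding sites. The genes were chosen by name, and a binding site (peak) was assigned to a gene when its summit lay in the gene body or within 20 kb of it. Of 105059 peaks in the 3 lists, 158 met this rule. They were 76 of 50159 peaks in mouse liver, 53 of 40531 in mouse embryonic fibroblasts (MEFs) and 29 of 14369 in human Hep3B cells.

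The assay was CUT&RUN: an antibody brings a nuclease to the DNA-bound protein, and the fragments it cuts free are read by sequencing. The liver list came from nuclei prepared from whole livers of wild-type C57BL/6J mice, 2 to 3 months of age, which the labels call hepatocyte (no sort of the cells is described), with a rabbit antibody to endogenous Prox1 (5 samples). The MEF list came from C57BL/6N fibroblasts of E13.5 embryos that carried rtTA and a doxycycline-inducible FLAG-tagged mouse Prox1 on lentivirus, with an anti-FLAG antibody (3 samples). The Hep3B list came from 1 human hepatocellular carcinoma line with inducible human PROX1, likewise with anti-FLAG (3 samples). Both cultures received 2 µg/ml doxycycline for 2 days, and each of the 3 settings had IgG libraries (5, 3 and 3 samples). The time of day at which livers or cells were collected is not given in the sources used here. Tissue, antibody and the origin of PROX1 (endogenous or overexpressed) all changed between liver and MEFs, and their contributions cannot be told apart. MEFs and Hep3B cells differed in species and cell type at once.

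Each list merged the samples of its group into 1 set of peaks, so no value below has a replicate error, no difference was tested, and the depth behind a peak is unknown. The height of a peak was given as −log10 of the caller's p at the summit. Since the lists differed in scale (medians of 12.2 in liver, 5.96 in MEFs and 6.44 in Hep3B), heights were compared only as percentiles within a list, where 100 is the highest peak. The lists were also deposited with unlike floors. The smallest area of a peak was 500 in liver and 200 in both other lists, and the smallest −log10 q was 4.03, 1.16 and 1.22, so numbers of peaks are not on 1 footing across lists. Of 5 hepatocyte genes (Alb, Apoa1, Hnf4a, Fgb and Ttr), 5 had a peak at a transcription start site (TSS) in liver, 0 in MEFs and 0 in Hep3B. Of 5 fibroblast genes (Col1a1, Col1a2, Col3a1, Prrx1 and Twist2), 0 had one in liver, 5 in MEFs and 1 (COL1A1) in Hep3B.

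The mammalian clock is a transcriptional feedback loop. CLOCK and BMAL1 form a heterodimer that binds the E-box, CACGTG, and activates the Per, Cry, Nr1d and Dbp genes, and the PER and CRY proteins then inhibit the heterodimer. NR1D1 and NR1D2 (REV-ERBα and REV-ERBβ) are nuclear receptors that repress Arntl through elements built on the AGGTCA motif, and DBP is an output factor that binds the D-box. In liver this loop drives daily rhythms of bile acid, lipid and glucose metabolism.

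E-boxes and the related E-prime box, CACGTT, were found beside the summits of several own-promoter peaks in MEFs and Hep3B cells. The stretches below are printed because each holds an E-box or E-prime box within 100 bp of such a summit. They read 5′ to 3′ on the gene's strand, with both elements in capitals (read on either strand, so that AACGTG is an E-prime box on the other strand), and come from mm10 for mouse and hg38 for human.
Per1, chr11:69095037-69095102: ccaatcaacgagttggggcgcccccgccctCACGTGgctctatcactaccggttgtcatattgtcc
PER1, chr17:8156693-8156758: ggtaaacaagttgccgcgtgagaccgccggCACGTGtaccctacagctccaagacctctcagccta
Cry1, chr10:85185079-85185144: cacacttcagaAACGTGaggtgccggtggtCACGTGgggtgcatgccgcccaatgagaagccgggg
Per2, chr1:91459302-91459331: agcgcgcgcggtCACGTTttccactatgtg
Dbp, chr7:45707682-45707747: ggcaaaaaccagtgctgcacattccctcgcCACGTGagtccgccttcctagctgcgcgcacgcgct
DBP, chr19:48634549-48634578: agcaggcgtcagCACGTGactcggccctga
Nr1d2, chr14:18238495-18238560: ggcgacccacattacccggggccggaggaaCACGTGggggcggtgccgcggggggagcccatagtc
CLOCK, chr4:55546084-55546149: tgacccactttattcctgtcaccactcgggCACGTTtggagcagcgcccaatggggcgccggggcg

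At Nr1d1, 2 E-boxes with starts 15 bp apart lay inside the gene in both species and under a peak in all 3 lists. Base by base, 61 of the 66 positions (92.4%) of the following stretches were identical.
Nr1d1, chr11:98773844-98773909: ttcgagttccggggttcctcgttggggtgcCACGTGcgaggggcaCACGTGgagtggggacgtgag
NR1D1, chr17:40099128-40099193: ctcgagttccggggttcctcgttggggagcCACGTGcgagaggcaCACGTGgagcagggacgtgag

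The strongest liver peaks of the clock genes held neither element within 50 bp of the summit. They are shown for the 3 genes with an AGGTCA motif in these bases and for the 3 highest-ranked of the others. Their 101 bases are centred on the summit, on the gene's strand, with AGGTCA or its complement TGACCT in capitals.
Cry1 liver, chr10:85187436-85187536: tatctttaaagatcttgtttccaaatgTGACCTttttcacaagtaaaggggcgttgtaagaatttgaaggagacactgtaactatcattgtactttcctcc
Cry2 liver, chr2:92445994-92446094: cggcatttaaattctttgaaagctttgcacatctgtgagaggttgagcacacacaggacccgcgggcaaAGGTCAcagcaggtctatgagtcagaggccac
Nr1d2 liver, chr14:18236860-18236960: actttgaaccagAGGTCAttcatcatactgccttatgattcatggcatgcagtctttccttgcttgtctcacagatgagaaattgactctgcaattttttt
Per2 liver, chr1:91420749-91420849: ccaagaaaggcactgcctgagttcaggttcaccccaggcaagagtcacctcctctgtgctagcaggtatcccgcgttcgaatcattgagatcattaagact
Per1 liver, chr11:69110685-69110785: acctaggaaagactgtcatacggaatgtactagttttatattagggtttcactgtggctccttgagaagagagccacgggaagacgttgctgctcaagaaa
Clock liver, chr5:76305715-76305815: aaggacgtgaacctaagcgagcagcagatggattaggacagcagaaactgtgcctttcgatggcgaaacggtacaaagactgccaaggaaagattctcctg

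All 9 clock genes had a PROX1 peak at an own promoter, within 1000 bp of one of their TSSs, in each of the 3 lists. Among all protein-coding genes, 28.2% had a promoter peak in liver, 56.5% in MEFs and 45.2% in Hep3B, and of 15746 genes named alike in both species 23.3% had one in all 3 lists. All 9 genes also had a peak in the wider window of gene body and 20 kb flanks in every list, where 57.5% (liver), 75.6% (MEFs) and 62.7% (Hep3B) of protein-coding genes had one. The promoter count depended on the settings in liver, where it was 6 of 9 within 500 bp (24.1% of protein-coding genes) and 5 of 9 among the 14369 highest peaks of the list (6.25%). It was 7 of 9 in MEFs among as many peaks (34.7%). Counting the outermost TSS alone left 9 in liver (23.4%), 9 in MEFs (51.3%) and 7 in Hep3B (39.3%), where PER2 and DBP had their peaks at internal starts.

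Peaks were dense around the clock genes. The median clock gene had 8.86 peaks per 100 kb of window in liver, against 1.53 for the median protein-coding gene, 6.00 against 2.64 in MEFs and 3.94 against 1.05 in Hep3B. Per2, a light- and glucocorticoid-responsive inhibitor of the loop, had the most in liver with 17 peaks. Arntl had 13, Cry2 10, Nr1d1 9, Per1 and Cry1 8 each, Nr1d2 5, and Clock and Dbp 3 each. In MEFs the order changed, with 12 peaks at Per1, 8 at Nr1d1, 7 at Arntl and Dbp, 6 at Cry2, 5 at Per2, 4 at Cry1, and 2 at Clock and Nr1d2. Hep3B had 7 at PER1, 4 at PER2, NR1D1 and DBP, 3 at CLOCK and CRY2, 2 at NR1D2, and 1 at BMAL1 and CRY1. The peaks were also wide, with a median of 728 bp in liver against 504 bp over the list, 827 against 646 bp in MEFs and 903 against 634 bp in Hep3B.

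**Figure D1:**
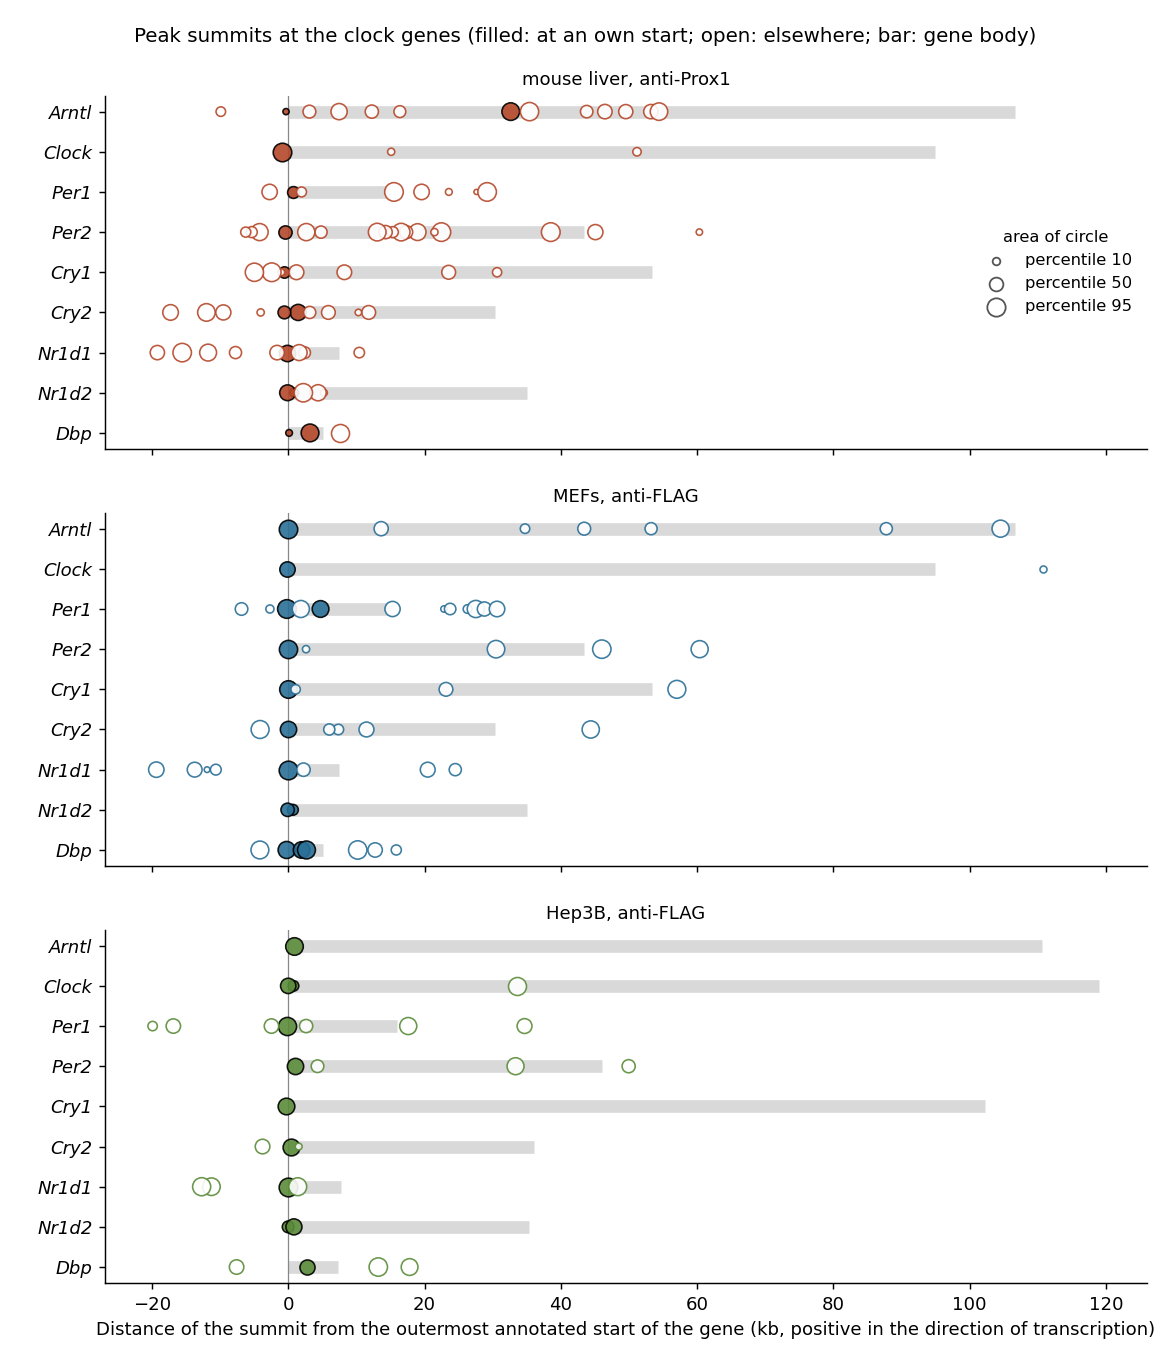
Summits at the 9 clock genes in the 3 lists, plotted by distance from the outermost annotated start (kb, positive in the direction of transcription). Grey bars are gene bodies, filled circles peaks within 1000 bp of an own TSS, open circles other peaks, and circle area grows with the percentile of −log10 p in the list. Liver circles spread along Arntl and Per2 (13 and 17 peaks), while BMAL1 and CRY1 in Hep3B have 1 filled circle each.

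In liver, the strongest peak of a clock gene was high in the list but mostly away from the promoter. It ranked in the top 10% of the list for 8 of 9 genes, against 14.7% of protein-coding genes, and the exception was Cry2 at percentile 86.3. In MEFs 6 of 9 genes reached the top 10% against 28.3% of genes, and in Hep3B 4 of 9 against 13.2%. A gene with more peaks has more chances of a high one, and the clock genes had many. The strongest peak lay elsewhere than at an own promoter for 8 of 9 genes in liver (79.7% of genes with a promoter peak and at least 2 peaks in all). This held for 4 of 9 in MEFs (51.4% of such genes) and for 3 of 7 in Hep3B (44.5%), so the clock genes stood near the background in each list. With peaks at promoters of other genes left out, the counts were 7 of 9 in liver (78.2% of such genes), 1 of 9 in MEFs (37.8%) and 2 of 7 in Hep3B (26.1%).

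**Figure D2:**
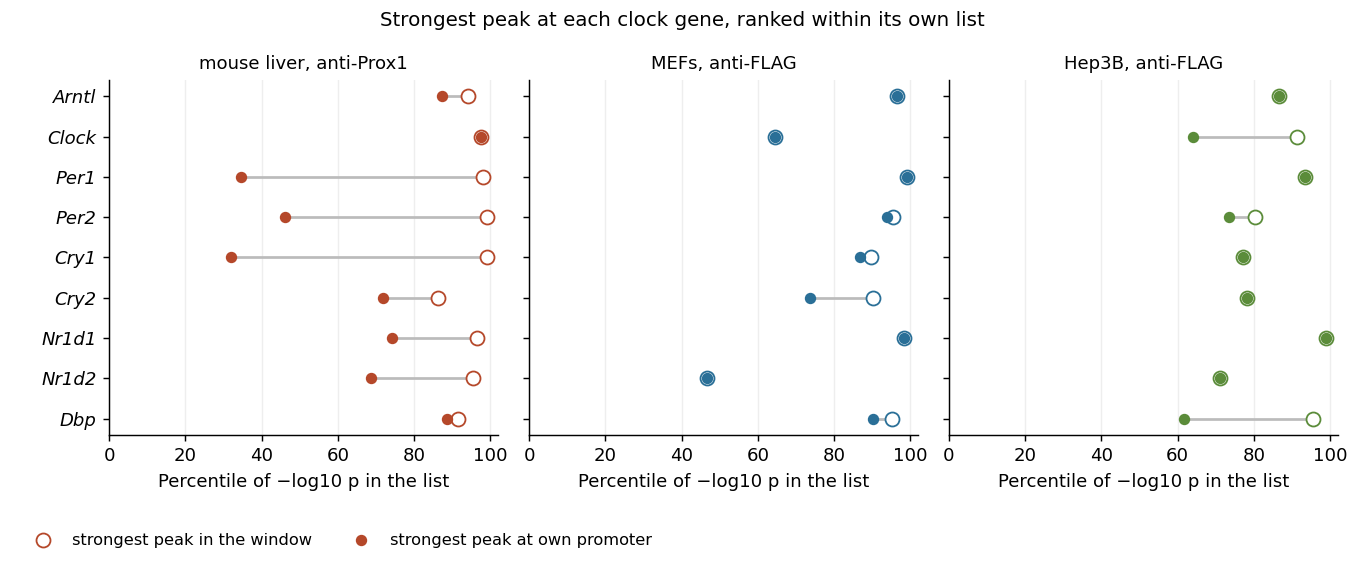
Percentile of −log10 p within each list for the strongest own-promoter peak of a clock gene (filled) and for its strongest peak in the gene body or within 20 kb (open), joined by a grey line. Long lines mark Per1, Per2 and Cry1 in liver, where promoter percentiles of 34.7, 46.1 and 32.0 sit beside strongest peaks at 98.1, 99.0 and 99.0.

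Clock and Arntl are the activators of the loop. Clock, the partner with histone acetyltransferase activity, was the 1 gene whose strongest liver peak was its own promoter peak. That peak (chr5:76305022-76306558, −log10 p 21.7, percentile 97.5) had its summit 973 bp upstream of the TSS and 889 bp from a TSS of the noncoding gene Gm7467. In MEFs the promoter peak of Clock (chr5:76303936-76305420) was at percentile 64.4 with its summit 192 bp upstream. In Hep3B the stronger of its 2 promoter peaks was at 64.0, and the strongest CLOCK peak (chr4:55513175-55513540, percentile 91.2) lay in an intron. The genes most like Clock in promoter percentiles over the 3 lists, of 15745 compared, were Copa (largest difference 1.62 percentile points), Prkag2 (5.71) and Ptprf (6.79).

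Arntl carried weak liver binding at its outermost TSS, with a peak 322 bp upstream (chr7:113206952-113207249, −log10 p 8.10) at percentile 3.81. An internal start had a liver peak at percentile 87.2 with its summit 32649 bp into the gene, and the strongest liver peak of Arntl (chr7:113242073-113243201, −log10 p 19.6, percentile 94.2) lay in a noncoding exon 3121 bp beyond that start. In MEFs the order was the opposite. The outermost TSS had the highest peak of the gene, with a summit at 9 bp (chr7:113206608-113208652, −log10 p 9.11, percentile 96.6), and an AGGTCA motif lay 71 bp from this summit. The single BMAL1 peak of Hep3B (chr11:13277150-13278130) was at percentile 86.6.

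Among the inhibitors, Per1 and Per2 had high promoter peaks in MEFs and lower ones in liver. Promoter peaks at large also ranked lower in liver, with a median percentile of 37.3 against 63.8 in MEFs. Per1, an immediate early gene of the clock, had its MEF promoter peak (chr11:69094368-69096423, −log10 p 10.1) at percentile 99.1, rank 359 of 40531. The PER1 promoter peak of Hep3B (chr17:8156236-8157234, −log10 p 8.61) was at 93.4, and the liver one (chr11:69094336-69096550, −log10 p 10.9) at 34.7. The liver peak was long, at 2215 bp, and stood at percentile 93.2 when ranked by area. The strongest liver peak at Per1 lay just beyond the 3′ end of the gene (chr11:69110353-69111217, −log10 p 22.2, percentile 98.1), and a second high one (percentile 97.7) lay near Hes7.

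For Per2, the promoter peak was at percentile 46.1 in liver, at 93.9 in MEFs and at 73.6 in Hep3B. Ranked by area, it was at 75.4, 99.5 and 86.3. The strongest liver peak (chr1:91419622-91421592, −log10 p 23.6, percentile 99.0) was in an intron, 29066 bp from the nearest own TSS. Of the 17 liver peaks, 11 lay inside the gene and 2 at the promoters of the neighbours Ilkap and Hes6, both of which also had MEF peaks. In MEFs the Hes6 promoter peak, at percentile 95.5, was the strongest of the window. HES6 had a peak in Hep3B as well, at percentile 44.9.

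The cryptochromes Cry1 and Cry2 supply the main repressive activity of the PER-CRY complex. Cry1 had its strongest liver peaks upstream, at 2422 bp (chr10:85187177-85188409, −log10 p 23.6, percentile 99.0) and 4963 bp (percentile 94.0) from the TSS, while its promoter peak was at 32.0. Neither upstream peak overlapped a MEF peak. The Cry1 promoter was at percentile 86.9 in MEFs and at 77.1 in Hep3B, where it was the gene's single peak. Cry2 promoter percentiles were close in the 3 lists, at 71.8, 73.7 and 78.3, and its strongest liver peak (chr2:92445874-92447146, percentile 86.3) lay 12001 bp upstream.

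The nuclear receptor genes Nr1d1 and Nr1d2 form the stabilising loop. Nr1d1 had promoter percentiles of 74.1 in liver, 98.4 in MEFs and 98.8 (rank 172 of 14369) in Hep3B cells (chr17:40100583-40101193, −log10 p 9.21). Its strongest liver peak had its summit 15557 bp upstream (chr11:98788567-98791140, −log10 p 20.8, percentile 96.5). That liver peak overlapped a MEF peak (chr11:98787864-98789398) only in part. The MEF summit lay 13728 bp upstream, and the MEF peak did not reach the liver summit. Windows of Nr1d1 also held peaks in Thra, which lies tail to tail with it, and at the Msl1 promoter. Nr1d2 had lower promoter peaks, at percentiles 68.6, 46.6 and 71.0, with 2 promoter peaks in every list. Its strongest liver peak (chr14:18236620-18237283, percentile 95.5) was in an intron 2101 bp from the nearest own TSS and had no MEF counterpart.

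Dbp, the output factor, lies in a gene-dense stretch beside Sphk2. Its promoter percentiles were 88.7 (liver), 90.3 (MEFs) and 61.8 (Hep3B). In each list the highest peak of the window belonged to a promoter of another gene, Sphk2 in liver (chr7:45712355-45714445, percentile 91.5), Sphk2 and Rpl18 in MEFs (chr7:45714857-45715549, percentile 95.1) and SPHK2 in Hep3B (chr19:48623874-48624944, percentile 95.6). Further MEF peaks of this window lay at promoters of Car11 and Fam83e. At Per1 the neighbouring promoters with peaks were 9130213A22Rik in liver (percentile 0.238), Vamp2, 9130213A22Rik and Aloxe3 in MEFs, and TMEM107 and SNORD118 in Hep3B. Elsewhere they were Mterf2 beside Cry1 and Gm45355 inside Arntl in MEFs and NKIRAS1 beside NR1D2 in Hep3B. Such peaks cannot be given to the clock gene rather than to its neighbour from position alone.

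Own-promoter peaks of the clock genes had higher median ranks than promoter peaks at large in each list. Their median was percentile 81.4 in MEFs (13 peaks), against 63.8 for all promoter peaks of the list. The values were 73.6 against 57.5 in Hep3B (11 peaks) and 46.1 against 37.3 in liver (13 peaks). Away from own promoters the medians were 54.6 in liver against 53.1 for all peaks away from promoters, 51.4 against 43.5 in MEFs and 58.5 against 38.1 in Hep3B. These sets are unlike, since only the clock gene peaks included promoters of other genes. Such peaks were 5 of 63 in liver, 12 of 40 in MEFs and 5 of 18 in Hep3B, with medians of 54.6, 73.7 and 55.5. The remaining MEF medians were 44.8 in gene bodies, 27.9 in upstream flanks and 37.3 in downstream flanks. The strongest promoter peak was in the top 25% of the list for 3 of 9 clock genes in liver (Arntl, Clock and Dbp), 6 of 9 in MEFs and 5 of 9 in Hep3B. The shares over all genes were 5.42%, 28.1% and 16.7%. Ranked by area, the liver count was 6, against 7.48% of genes.

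**Figure D3:**
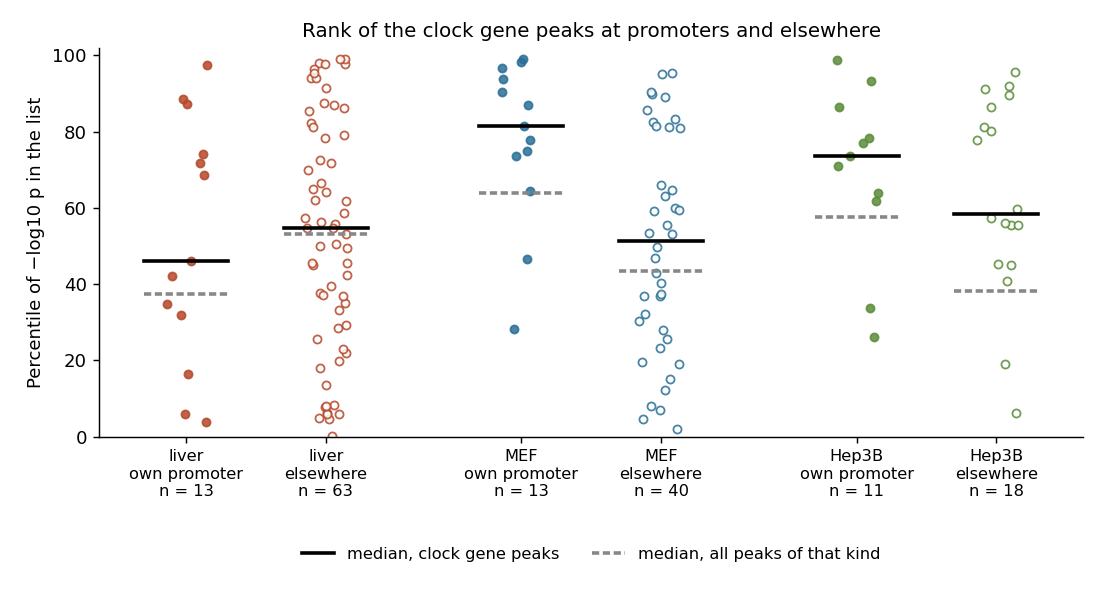
Percentile of −log10 p in the list for each clock gene peak, split by list and by place (filled: within 1000 bp of an own TSS; open: elsewhere), with points spread sideways for legibility. Black bars are medians of the clock gene peaks. Dashed grey bars are medians of all peaks at a promoter of any gene (own promoter) or away from every promoter (elsewhere). The open circles include peaks at promoters of other genes. The MEF own-promoter median of 81.4 lies above the 51.4 of the other MEF peaks, while in liver the own-promoter median of 46.1 lies below the 54.6 of the others.

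Summits lay at different distances from the start. Clock gene summits were measured to the nearest own TSS, and all promoter peaks to the nearest TSS of any gene, coding or noncoding. The second measure can only be equal or shorter, so the sets are unlike. Liver own-promoter summits had a median distance of 399 bp from the nearest own TSS (52 to 973 bp), against 238 bp for all liver promoter peaks. The medians were 87.0 bp in MEFs (103 bp for all) and 66.0 bp in Hep3B (74.5 bp for all). Within 100 bp of an own TSS were 2 of 13 summits in liver (15.4%, against 30.2% of all promoter peaks), 7 of 13 in MEFs (53.8%, against 49.4%) and 7 of 11 in Hep3B (63.6%, against 59.1%).

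Most own-promoter peaks of the clock genes were covered in both mouse lists. Of the 13 liver ones 12 overlapped a MEF peak by at least 1 bp (92.3%, against 53.8% of all liver promoter peaks), and of the 13 MEF ones 11 overlapped a liver peak (84.6%, against 33.6%). Over all clock gene peaks 33 of 76 liver peaks (43.4%) and 34 of 53 MEF peaks (64.2%) did so, against 18.9% and 21.4% of the whole lists. Away from own promoters the shares were 33.3% and 57.5%, against 9.95% and 14.0% of all peaks away from promoters. Here too only the clock gene sets included peaks at promoters of other genes. Coincidence of summits was far rarer. With summits required to lie within 100 bp, 7 of 76 liver peaks (9.21%) and 7 of 53 MEF peaks (13.2%) were shared, against 6.56% and 8.12% of the lists. Wider peaks overlap more readily, and the share of the overlap that width accounts for was not tested.

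Except for the mouse Nr1d1 pair, the stretches printed above were chosen for an E-box or E-prime box beside a MEF or Hep3B summit. Their nearness to those summits was fixed by that choice and is no result. The counts that follow were made over all clock gene peaks or all own-promoter peaks. An E-box was within 100 bp of the summit in 8 of 53 clock gene peaks in MEFs (15.1%, against 4.75% of all MEF peaks), in 3 of 29 in Hep3B (10.3%, against 6.04%) and in 1 of 76 in liver (1.32%, against 3.27%). At own promoters the counts were 4 of 13 in MEFs (Per1, Cry1, Nr1d2 and Dbp; 30.8%, against 6.84% of promoter peaks), 2 of 11 in Hep3B (PER1 and DBP; 18.2%, against 6.97%) and 0 of 13 in liver, where the share of promoter peaks was 4.24%. The E-prime box lay there in 4 of 13 own-promoter peaks in MEFs (Cry1, Per2, Nr1d1 and Dbp; 3.68% of promoter peaks), 3 of 11 in Hep3B (CLOCK, NR1D1 and DBP; 3.91%) and 0 of 13 in liver (3.24%). Letters were searched on both strands, and the E-box and E-prime box differ in the last base, so no site counts as both. A match describes the letters and not a bound protein.

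E-boxes were also found inside liver peaks, away from the summit in most. Anywhere in the peak, an E-box was found in 14 of 76 liver clock gene peaks (18.4%, against 10.4% of the list), 12 of 53 in MEFs (22.6%, against 14.3%) and 8 of 29 in Hep3B (27.6%, against 15.5%). Clock gene peaks were wider than those of their lists, and a wider peak has more room for a match. The part of these shares due to width was not tested. The E-box of Per1 printed above was 39 bp from the MEF summit and 867 bp from the liver summit. That of Dbp was 50 bp from the MEF summit and 573 bp from the liver one. For Cry1 the MEF summit was 2 bp from the E-box, with an E-prime box starting 19 bp farther on, and neither was inside the liver promoter peak. The Nr1d2 E-box was 88 bp from the MEF summit and 272 bp from the liver summit. These sites were picked by their nearness to MEF summits. Their greater distances from liver summits are given as positions only, not as a difference between lists.

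Some spacings of these elements matched between the mouse and human peaks and others did not. At Per1 and PER1 a pair of E-boxes under the promoter peak had starts 184 bp apart in both species. At Dbp and DBP an E-prime box lay between an upstream and a downstream E-box in both species. In the direction of transcription, the starts were 62 and then 51 bp apart in mouse, and 73 and then 62 bp apart in human. The spacing of 62 bp was thus upstream of the E-prime box in mouse and downstream of it in human, and neither spacing matched in place. At Nr1d1 and NR1D1 a further E-prime box and E-box had starts 13 bp apart upstream of the TSS in both species. The 3 E-boxes of Nr1d2 and NR1D2 were close but not equal in spacing. In the direction of transcription their starts were 103 and 45 bp apart in mouse and 109 and 50 bp in human. The CRY1 peak of Hep3B held an E-prime box and no E-box. The NR1D1 pair printed above lay 27 bp from a Hep3B summit (chr17:40098915-40099525, percentile 89.7). In mouse, the Nr1d1 pair lay 134 bp from a liver summit (chr11:98773499-98774393, percentile 70.0). It was 1514 bp from the summit of the MEF peak that covered it. Of 32851 mouse promoters of the RefSeq table (GRCm38.p6, from 250 bp before to 50 bp after a start), 7.15% held an E-box and 4.68% an E-prime box. Entries of Per1 and Cry1 held an E-box, and entries of Cry1, Cry2 and Nr1d1 an E-prime box. Per2 has no entry in this table.

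**Figure D4:**
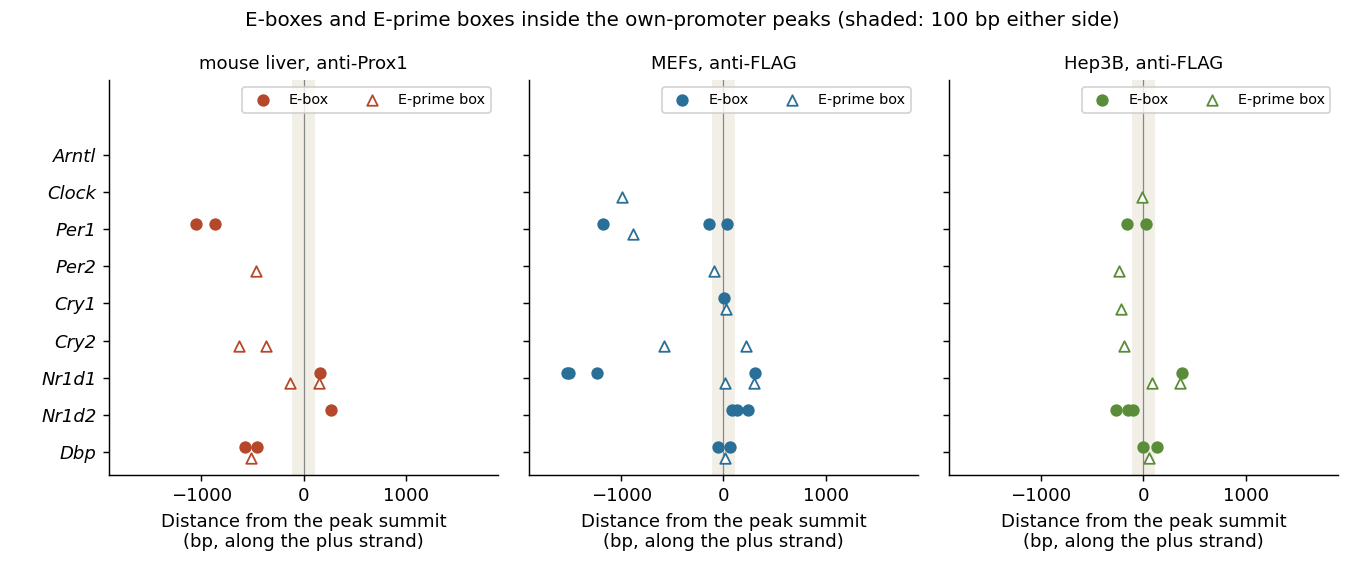
Distance of each E-box (circles) and E-prime box (triangles) inside an own-promoter peak from that peak's summit, in bp along the plus strand, for the 9 clock genes in the 3 lists. The shaded band is 100 bp either side of the summit. E-boxes of Per1, Cry1, Nr1d2 and Dbp and E-prime boxes of Cry1, Per2, Nr1d1 and Dbp fall in the band in MEFs, and the band is empty in liver.

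Other motifs were counted in the same way. AGGTCA lay within 100 bp of the summit in 20 of 76 liver peaks at clock genes (26.3%, against 26.0% of the list), 12 of 53 in MEFs (22.6%, against 11.3%) and 2 of 29 in Hep3B (6.90%, against 9.78%). At own promoters in MEFs it was near 3 of 13 summits (23.1%, against 8.25% of promoter peaks). Of the 9 strongest liver peaks 4 held it there, 21 bp from the summit at Cry1 and Cry2, 36 bp at Nr1d2 and 59 bp at Per2. The D-box, TTANGTAA, occurred near 1 summit in liver (1.32%, against 2.91%), 1 in MEFs (1.89%, against 1.20%) and 2 in Hep3B (6.90%, against 1.41%). The cyclic AMP response element, TGACGTCA, occurred near 1 in liver (1.32%, against 0.263%), 1 in MEFs (1.89%, against 0.918%) and 0 in Hep3B (against 1.39%). The PROX1 consensus with up to 2 mismatches was near 4 of 76 summits in liver (5.26%, against 4.20%), 1 of 53 in MEFs (1.89%, against 2.95%) and 2 of 29 in Hep3B (6.90%, against 3.00%). With up to 1 mismatch it was near none of the clock gene summits, and near 0.219% of all summits in liver, 0.188% in MEFs and 0.174% in Hep3B.

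Further genes of the circadian pathway also had promoter peaks. They were 16 of 22 in liver, where 28.2% of all protein-coding genes had one, 21 of 22 in MEFs (56.5%) and 14 of 21 in Hep3B (45.2%). Genes with one in all 3 lists included the receptor gene Rora, the PAR bZIP factor Tef, the E-box repressor Bhlhe40, Timeless, the kinases Csnk1d, Csnk1e and Gsk3b, the ubiquitin ligase subunits Btrc and Fbxw11, and the deubiquitinase Usp2. The highest promoter percentiles were those of Csnk1d (92.5), Hlf (92.4) and Cipc (91.1) in liver, Gsk3b (98.9), Btrc (98.4) and Tef (97.1) in MEFs, and TEF (93.8), BHLHE40 (88.4) and GSK3B (85.7) in Hep3B. Per3, the third period gene, had no promoter peak in liver and promoter peaks at percentile 87.6 in MEFs and 84.0 in Hep3B.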

How the data were processed

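The 22 CUT&RUN samples fell into 6 groups by their labels. The authors trimmed reads with TrimGalore 0.6.6, aligned them with Bowtie2 2.4.2 to mm10 or hg38, and called consensus peaks per group with Genrich 0.6.1 at a q limit of 0.3. No control library appears in that command, while the paper describes its high-confidence sites as found in comparison to IgG. Whether IgG shaped the lists was not tested. Per peak, the deposited score (capped by the authors' caller) was not used. The deposited signal sums significance over the peak (its area). The deposited −log10 p and the deposited −log10 q belong to the summit, which the deposited summit offset in bp locates. The authors normalized none of these between lists.

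Summits were placed on GENCODE M21 and 44 with Python 3.11.15, and peaks were ranked by −log10 p within a list. Promoters were 1000 bp either side of any TSS. Peak placement was tested on simulated peaks. Motif shares in Hep3B used 14361 peaks, since 8 lay on other contigs. Members, pathway and marker lists were chosen with earlier results of these data known. Genes were named as the 9 members in full, neighbours whose TSS lay within 1000 bp of a member summit, pathway genes bound in all 3 lists or among the 3 highest of a list, and the 3 genes most like the member with the highest liver promoter peak; Per3, Thra and Hes7 were named after their values were seen. Some results of the pathway list are not reported here. Alternatives covered promoter windows, flanks, peak filters, ranking, overlap and motif windows.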

Additional observations from a re-analysis of the deposited data

How the results depend on the processing

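No paired analysis was possible because each list pools the samples of its group and no result comes from a test; leaving out a replicate was not possible for the same reason. Of 100 alternative values, 68 stayed within 1.5 times the reported count. Some of these could not move, so the tally overstates stability. In liver, limits of q below 0.05 or 0.01 and an area of at least 500 kept all 50159 peaks. The 14369 highest peaks are the whole Hep3B list. A q below 0.05 kept 40497 of 40531 MEF peaks and 14366 of 14369 Hep3B peaks. The values that moved farther are given here in the order liver, MEFs, Hep3B unless a list is named. Among the 14369 highest peaks of each list, 5 clock genes had a liver promoter peak, and the peaks in the windows fell to 25 in liver and 23 in MEFs. Requiring an area of at least 500 left 31 peaks in MEFs and 17 in Hep3B. Without flanks the windows held 43, 21 and 13 peaks, and with 50 kb they held 89 in MEFs and 49 in Hep3B. Summits within 100 bp left 7 shared peaks in each mouse list. Ranked by area, 6 liver promoters were in the top 25%, and in MEFs the strongest peak was elsewhere than at the promoter for 1 gene, as it was for 1 without promoters of other genes (both of these last chosen after seeing the data, as were the top 20% of a list and the E-prime box). Anywhere in the peak, E-boxes were found in 14 liver and 8 Hep3B peaks, D-boxes in 8, 6 and 6, the cyclic AMP response element in 3, 3 and 1, AGGTCA in 41, 31 and 12, and the PROX1 consensus in 16, 9 and 6. With up to 1 mismatch the consensus was near 0, 0 and 0 summits (0.219%, 0.188% and 0.174% of all summits). The depth of the samples was not used here, and a missing peak does not show missing binding.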
